A study of Mus musculus with 20 samples.

Results

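The genes described here are 10 markers of radial glia and astrocytes: Fabp7, Hes5, Sox9, Slc1a2, Slc1a3, Glul, Gja1, Gjb6, Aqp4 and Aldh1l1. They were listed by name as identity genes of these cells, with earlier results of these data known, and all 10 were found among the 19722 gene identifiers of the 4 h table and the 51912 of the 24 h table. RNA was sequenced from forebrain slices that were cut from mouse pups at postnatal day 4 and kept in medium with 5% horse serum. For 4 h there were 3 libraries labelled wild type (WT) and 3 labelled knockout (KO) for TSG-6, the hyaluronan-binding protein that the gene Tnfaip6 encodes, with no sex given. For 24 h there were, in each sex, 3 libraries labelled heterozygous (Het) and 4 labelled KO. All slices received serum, so no library shows these genes without it, and the control genotype differed between the times. What was removed from the gene is not given. The 24 h treatment text names wild-type slices, whereas the 24 h titles name heterozygotes. No label ties a library to its own pup, so the p-values measure the spread between libraries, which may be partly technical. Because the tissue was bulk, fewer cells of a type and less RNA per cell cannot be told apart.

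Radial glia line the ventricles of the embryonic forebrain, serve as neural stem cells and as a scaffold for migrating neurons, and many of them turn into astrocytes around birth. Astrocytes clear glutamate from synapses and convert it to glutamine, are joined to each other by gap junctions, and place water channels on the endfeet that touch blood vessels. In mice several of these genes change their levels strongly in the first weeks after birth as radial glia give way to maturing astrocytes.

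The libraries held between 11411532 and 15030171 reads at 4 h and between 8482933 and 18051300 at 24 h. Tnfaip6 was read 37 to 94 times per library at 4 h and 45 to 108 times at 24 h, in both genotypes, so the transcript counts did not separate the genotype labels. For this reason the mutant libraries are called KO-labelled. KO female 2 held 1650 reads of Y-linked genes and 0 of Xist, against its label, and Het male 1 held 107 Xist reads beside 1470 Y-linked reads. At 4 h, WT 1 and KO 1 held 5655 and 2355 Xist reads and the other libraries at most 3. Ttr, the defining transcript of the choroid plexus, stood at 1450, 2669 and 450.4 CPM, that is counts scaled to a common library total, in KO female 1, KO female 3 and KO male 3, and at most at 0.806 CPM in the other 24 h libraries. The averaged 24 h difference of each of the 10 genes is given below also without the 3 libraries with Ttr.

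For 8 of the 10 genes the RefSeq promoter table for GRCm38.p6 held an entry. Shown here are 180 bases for each of 4 genes, ending just before the GENCODE or the RefSeq start, whichever lies farther upstream. This is the GENCODE start for Fabp7, 42 bases before that of RefSeq, the RefSeq start for Slc1a3 and Gja1, 43 and 30 bases before that of GENCODE, and the same base for Hes5. They are shown for Fabp7, whose values were lower in KO-labelled libraries at both times, for Slc1a3 and Gja1, which had the smallest adjusted p among the 10 genes at 4 h, and for Hes5, a direct target of Notch signalling. Each is written 5′ to 3′ on the strand of its gene. Capitals mark TGGGAA, the core letters bound by RBPJ, the DNA-binding partner of Notch.
Fabp7 (chr10:57784701-57784880, plus strand): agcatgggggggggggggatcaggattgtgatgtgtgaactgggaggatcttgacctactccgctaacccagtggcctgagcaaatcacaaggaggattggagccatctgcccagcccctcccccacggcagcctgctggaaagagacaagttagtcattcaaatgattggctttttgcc
Slc1a3 (chr15:8710808-8710987, minus strand): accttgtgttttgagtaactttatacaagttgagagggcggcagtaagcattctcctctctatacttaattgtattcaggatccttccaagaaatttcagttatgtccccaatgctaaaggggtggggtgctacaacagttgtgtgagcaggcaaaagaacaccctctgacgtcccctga
Gja1 (chr10:56377120-56377299, plus strand): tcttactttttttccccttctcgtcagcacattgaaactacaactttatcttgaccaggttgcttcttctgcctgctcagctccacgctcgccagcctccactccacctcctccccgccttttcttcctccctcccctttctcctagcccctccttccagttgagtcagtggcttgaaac
Hes5 (chr4:154960743-154960922, plus strand): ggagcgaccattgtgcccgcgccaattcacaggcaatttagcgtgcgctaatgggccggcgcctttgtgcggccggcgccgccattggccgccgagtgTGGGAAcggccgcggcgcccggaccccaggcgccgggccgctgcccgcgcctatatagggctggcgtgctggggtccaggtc

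In the 250 bases upstream of the RefSeq start, Hes5 held TGGGAA at 82 to 77 bases before the start and its reverse complement TTCCCA at 226 to 221 bases. Fabp7 and Aldh1l1 each held 1 copy of TTCCCA, at 249 to 244 and 150 to 145 bases, outside the printed stretch of Fabp7. The RefSeq starts used for Aldh1l1 and Slc1a2 lie 64366 and 47779 bases inside the gene as GENCODE draws it, so their windows are not at the outer gene start and are not printed. TGGGAA or TTCCCA occurred in 21.6% of 32851 promoter windows of this length. The short site of the NFI factors, TTGGC or GCCAA on the other strand, occurred 2 times each in Hes5 and Glul and 1 time each in Fabp7 and Slc1a2, and in 41.5% of all windows. The SOX core AACAAT or ATTGTT, found in 9.42% of windows, was in none of the 8. No match of one motif overlapped a match of another in these windows.

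After 4 h in serum, all 10 genes had a lower fitted mean in the KO-labelled than in the WT libraries, where 49.4% of the 15181 genes tested were lower. Their median log2 fold change was -0.20, beside 0.00 for all genes. None of the 10 passed an adjusted p of 0.05 by limma, and 7 genes of the table did (0.0461%), while 2110 had an unadjusted p under 0.05. For 5 of the 10, namely Fabp7, Sox9, Slc1a3, Glul and Gja1, every KO-labelled library lay below every WT library; 8.88% of all tested genes did so. Levels at 4 h are normalised read counts, that is reads divided by a size factor for each library, and fold changes are on the scale of log2(value + 1).

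Fabp7 encodes a fatty acid-binding protein that is abundant in radial glia and immature astrocytes. Its normalised counts at 4 h were 8638, 8921 and 8817 in WT 1, 2 and 3 and 7355, 8543 and 6914 in KO 1, 2 and 3. The WT libraries lay close together, with a mean of 8792 ± 144 (SD, n = 3), and the KO-labelled libraries averaged 7604 ± 842 (SD, n = 3), with KO 2 nearest to WT. The log2 fold change was -0.22 ± 0.08 (SE; limma, adjusted p = 0.246). Without KO 2 it was -0.30 and passed the threshold (limma, adjusted p = 0.0314), and the count of genes passing rose from 7 to 211.

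Hes5, a transcriptional repressor that Notch switches on in neural progenitors, gave few reads. Its normalised counts were 71.6, 83.8 and 86.4 in WT and 82.3, 67.0 and 59.3 in KO-labelled libraries, and the groups overlapped. Sox9, a transcription factor that commits progenitors to a glial fate, was read at 873, 902 and 876 in WT and at 822, 754 and 757 in KO-labelled libraries. The Sox9 groups did not overlap, with a log2 fold change of -0.18 ± 0.07 (SE; limma, adjusted p = 0.288), against -0.22 ± 0.19 for Hes5 (SE; limma, adjusted p = 0.634).

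Among the genes of glutamate handling, Slc1a3 encodes the glutamate transporter GLAST, which radial glia already carry. Slc1a3 stood at 11083, 10529 and 10567 in WT and at 9324, 9360 and 8892 in KO-labelled libraries. Each group spread by under 3% of its mean (coefficient of variation 2.89% and 2.83%), and the gap between them exceeded that spread, with means of 10726 ± 310 and 9192 ± 260 (SD, n = 3 each). The log2 fold change was -0.22 ± 0.06 (SE; limma, adjusted p = 0.168). DESeq2 on the reads recovered from the table called the gene (adjusted p = 0.0373), 1 of 161 genes it called among 19722. Glul, the glutamine synthetase of astrocytes, had 7284, 5930 and 6337 in WT and 4984, 5821 and 5867 in KO-labelled libraries, which is -0.23 ± 0.09 on the log2 scale (SE; limma, adjusted p = 0.266). The Glul groups did not overlap, but WT 2 and KO 3 lay close together. Slc1a2 encodes GLT-1, the glutamate transporter that takes over as astrocytes mature. Its counts of 6325, 3927 and 5223 in WT and 4280, 5269 and 4981 in KO-labelled libraries overlapped, with the highest and the lowest library both in WT (-0.07 ± 0.13, SE; limma, adjusted p = 0.856).

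Gja1 encodes the main connexin of astrocytes and radial glia. It had 1914, 1642 and 1761 normalised counts in WT and 1512, 1438 and 1485 in KO-labelled libraries, the largest fold difference of the 10 at -0.26 ± 0.07 (SE; limma, adjusted p = 0.168). The other connexin is Gjb6, which appears later in maturing astrocytes. Its values of 50.4, 55.2 and 49.8 in WT and 44.98, 52.9 and 41.1 in KO-labelled libraries overlapped (-0.16 ± 0.21, SE; limma, adjusted p = 0.764).

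Aqp4, the water channel of the endfeet, had 2280, 1704 and 1929 in WT and 1798, 1928 and 1940 in KO-labelled libraries, with both extremes in WT (-0.05 ± 0.09, SE; limma, adjusted p = 0.844). Aldh1l1, a folate enzyme used as a pan-astrocyte marker, had 1655, 1810 and 1759 in WT and 1727, 1591 and 1638 in KO-labelled libraries, again with overlap (-0.08 ± 0.07, SE; limma, adjusted p = 0.659).

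**Figure D1:**
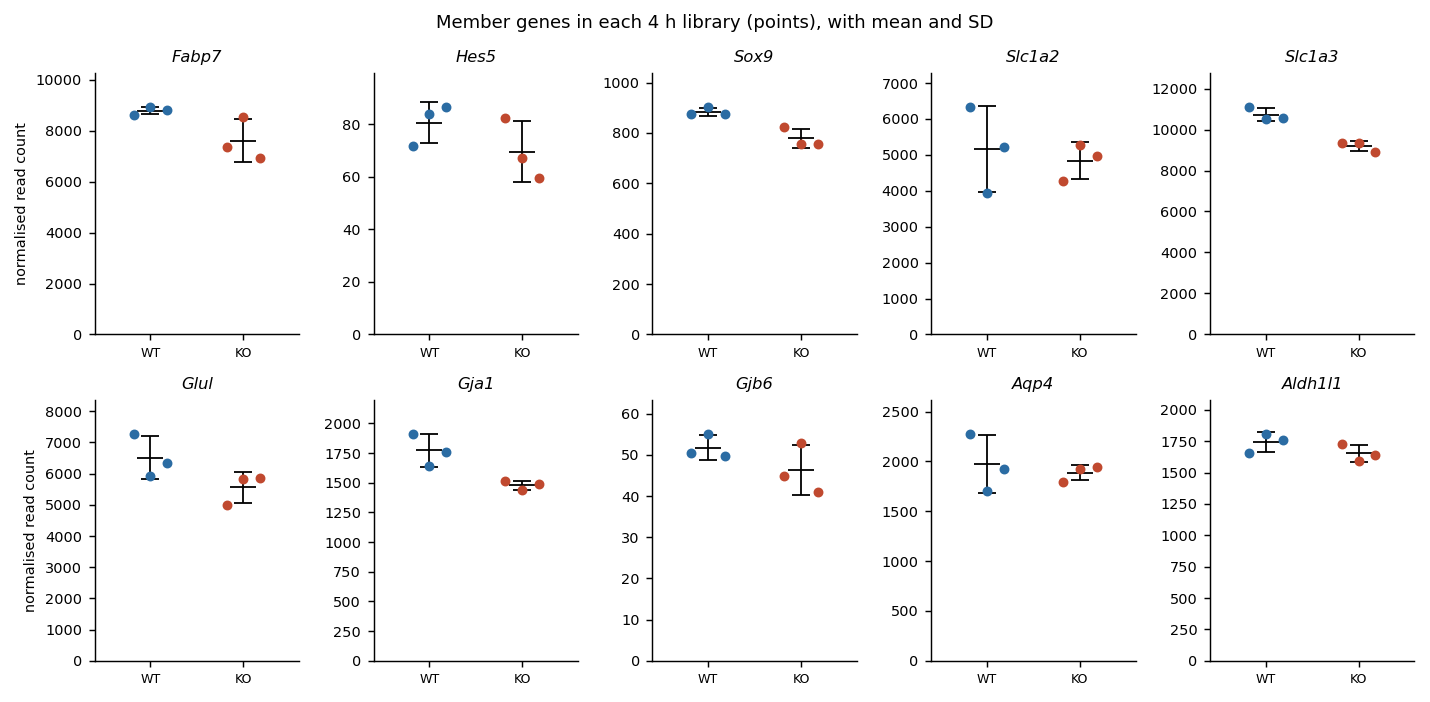
Normalised read counts (linear axes from 0) of the 10 genes in the 3 WT (blue) and 3 KO-labelled (red) libraries at 4 h; bars give the mean and SD. The groups do not overlap for Fabp7, Sox9, Slc1a3, Glul and Gja1 and overlap for the other 5.

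The deviations of same-numbered libraries from their group means correlated at 4 h with r of 0.264, 0.140 and 0.176, which were not tested. Differently numbered libraries had r from -0.218 to 0.064, below each of these. Deviations within a group cancel out, which ties these values to each other. With the replicate number as a block, 38 of 15181 genes passed, none of them one of the 10, and the smallest adjusted p among the 10 was 0.123. Without WT 1 and KO 1, which hold the Xist reads, 8 of the 10 were lower and Slc1a2 and Aqp4 were higher, at 0.18 and 0.093 on the log2 scale. DESeq2 on the recovered reads called 161 genes and, of the 10, Slc1a3.

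The other lists of glial genes also had mostly negative fold changes at 4 h, with none of their genes past the threshold. Of 15 further radial glia and progenitor genes, 15 had a negative fold change, with a median of -0.23. Those with the smallest p were Ptprz1, a receptor phosphatase of radial glia (-0.26 ± 0.07), and Mfge8, a secreted glycoprotein (-0.21 ± 0.06). Of 24 further astrocyte genes, 23 were negative with a median of -0.18, among them Slco1c1 (-0.41 ± 0.09), a thyroid hormone transporter. Of 16 reactive astrocyte genes, 14 were negative with a median of -0.11, led by Hspb1 (-0.93 ± 0.25) and Serpina3n (-0.24 ± 0.09). The Notch pathway had 17 of 20 negative with a median of -0.08, led by the receptors Notch1 (-0.34 ± 0.08) and Notch3 (-0.29 ± 0.11). All these errors are SE, and no adjusted p of these genes was under 0.05.

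The genes around the members' functions were closer to balance at 4 h, and none of them passed the threshold. Of 13 endfoot and ion balance genes, 8 were negative with a median of -0.05, led by the potassium channel Kcnj10 (-0.34 ± 0.09) and by Mlc1 (-0.22 ± 0.08). Of 13 genes of the glutamate-glutamine cycle 5 were negative with a median of 0.02, and its leading genes were the neuronal vesicular transporter Slc17a7 (0.45 ± 0.11) and the amino acid transporter Slc38a5 (-0.53 ± 0.14). The 12 gliogenic transcription factors had 7 negative and a median of -0.03, among them Id1 (0.25 ± 0.17). One-carbon folate genes had 6 of 10 negative with a median of -0.02, among them Tyms (-0.29 ± 0.22). Connexins and pannexins had 2 of 9 tested genes negative with a median of 0.10, led by Gjb2 (-0.65 ± 0.24) and Gja4 (0.39 ± 0.18).

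Several lists of other cell types had fold changes of a single sign at 4 h, with none of their genes past the threshold. The 14 excitatory neuron genes were all positive, with a median of 0.32, led by the synaptic vesicle gene Sv2b (0.39 ± 0.07) and the cortical transcription factor Tbr1 (0.46 ± 0.09; both limma, adjusted p = 0.0909). Their summed normalised counts were 24718 to 27638 in WT and 30886 to 33145 in KO-labelled libraries, without overlap. Ependymal genes were negative in 10 of 10, with a median of -0.64, led by Ak7 (-0.83 ± 0.17) and Foxj1 (-0.56 ± 0.12), and their sums were 1138 to 1493 against 702 to 952. Endothelial and pericyte genes were negative in 14 of 14, with a median of -0.31, led by Rgs5 (-0.37 ± 0.09) and Cdh5 (-0.33 ± 0.09), and their sums were 6260 to 7355 against 5450 to 5697. Meningeal genes were negative in 11 of 11 with a median of -0.40, led by Ogn (-0.998 ± 0.27) and Foxc1 (-0.67 ± 0.21), with sums of 6478 to 8263 against 4760 to 7254. Sums also lay lower without overlap for the 10 genes (35503 to 40173 against 31929 to 34823) and for the radial glia, Notch and reactive astrocyte lists. They lay higher without overlap for the pan-neuronal and connexin lists. Meningeal sums overlapped, as did those of every list not named in this paragraph. How often sums of other gene sets separate was not determined. The part of neurons, ependyma, vessels and meninges in the members' values was not tested.

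The remaining lists were mixed at 4 h, and none of their genes passed the threshold. Cell cycle genes were negative in 14 of 15 with a median of -0.19, led by Mcm2 (-0.37 ± 0.11) and Top2a (-0.33 ± 0.10). Oligodendrocyte precursor genes were negative in 10 of 12 with a median of -0.14, led by Lhfpl3 (-0.17 ± 0.08) and Gpr17 (0.23 ± 0.11). Microglial genes were negative in 9 of 12 with a median of -0.07, among them Fcrls (-0.20 ± 0.12). Pan-neuronal genes were negative in 3 of 12 with a median of 0.10, led by Tubb3 (0.22 ± 0.07) and Syn1 (0.18 ± 0.08), and inhibitory neuron genes in 7 of 13 with a median of 0.00, led by Dlx6 (-0.23 ± 0.14) and Dlx2 (-0.17 ± 0.13). Of the choroid plexus list, 4 genes were abundant enough to test and 3 were negative with a median of -0.27, led by Aqp1 (-0.53 ± 0.23) and Otx2 (-0.41 ± 0.21).

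After 24 h in serum, 8 of the 10 genes were lower in KO-labelled than in Het libraries on average over the sexes, where 50% of the 16013 genes tested were lower. Their median log2 fold change was -0.10, beside 0.00 for all genes. Without Het male 1 the 10 split into 5 lower and 5 higher, with a median of -0.0039. No gene of the table passed the threshold in this contrast by edgeR's quasi-likelihood test (0%), and 1060 had an unadjusted p under 0.05. The same count of 0 (0%) held within females, within males and for the difference of the genotype contrast between the sexes, where 657, 1100 and 618 genes had an unadjusted p under 0.05.

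Fabp7 had the smallest p of the 10. Among females it was 372, 373 and 344 CPM in Het and 339, 269, 320 and 292 in KO-labelled libraries. Among males it was 413, 386 and 317 in Het and 254, 293, 246 and 303 in KO-labelled libraries. Within each sex every KO-labelled library lay below every Het library, whereas across the sexes Het male 3 lay below KO female 1 and KO female 3. The means over both sexes were 367 ± 33.4 (SD, n = 6) in Het and 290 ± 31.9 (SD, n = 8) in KO-labelled libraries. The log2 fold change was -0.25 ± 0.10 in females, -0.44 ± 0.10 in males and -0.35 ± 0.07 on average (SE; edgeR, adjusted p = 0.493, unadjusted p = 0.000123). DESeq2 called Fabp7 in the averaged contrast (adjusted p = 0.0123), 1 of 5 genes it called. It was given all 51912 identifiers, of which 21642 had no reads in any 24 h library and could not be tested. Without its filter on low counts edgeR called Fabp7 too (adjusted p = 5.27e-08). That setting called 263 of 30270 genes, whereas the filtered fit called 0 of 16013. Leaving out single libraries moved the averaged value between -0.40 and -0.30, and leaving out the 3 libraries with Ttr gave -0.38. Fabp7 and Glul were the 2 genes of the 10 whose groups did not overlap in females, with every KO-labelled library lower; 2.4% of all tested genes did so. In males this held for Fabp7 alone of the 10, against 3.77% of all tested genes.

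Hes5 was thinly covered at 24 h, with 724 reads over all 14 libraries. In females it was 5.14, 4.19 and 2.98 CPM in Het and 3.29, 2.62, 7.53 and 3.41 in KO-labelled libraries. In males it was 3.94, 5.25 and 3.89 in Het and 2.44, 3.92, 3.25 and 4.29 in KO-labelled libraries. KO female 3, a library with choroid plexus reads, held the highest Hes5 of all 14, and the averaged log2 fold change was -0.13 ± 0.23 (SE; edgeR, adjusted p = 0.952). Sox9 was 60.0, 61.6 and 54.1 CPM in Het females, 49.2, 55.8, 87.1 and 59.2 in KO-labelled females, 73.0, 59.1 and 56.7 in Het males and 58.6, 59.9, 54.8 and 69.9 in KO-labelled males. KO female 3 was again the highest, and the averaged Sox9 value of 0.03 ± 0.11 (SE; edgeR, adjusted p = 0.986) became -0.069 without it.

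Of the glutamate genes, Slc1a3 was 793, 731 and 774 CPM in Het females and 613, 727, 835 and 720 in KO-labelled females. In males Slc1a3 was 1021, 783 and 658 in Het and 828, 757, 722 and 852 in KO-labelled libraries. Both sexes overlapped, and the averaged value was -0.07 ± 0.08 (SE; edgeR, adjusted p = 0.924). Slc1a2 was 329, 361 and 322 CPM in Het females, 257, 377, 387 and 273 in KO-labelled females, 447, 311 and 236 in Het males and 287, 317, 291 and 273 in KO-labelled males. The Het males alone spanned both the highest and the lowest Slc1a2 of the 14 libraries, and the averaged value was -0.12 ± 0.12 (SE; edgeR, adjusted p = 0.888).

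Glul was the steadiest of the 10 at 24 h, its highest library being 1.25 times its lowest. It was 407, 411 and 407 CPM in Het females and 382, 396, 370 and 377 in KO-labelled females, without overlap, and 428, 372 and 341 in Het males against 373, 369, 347 and 389 in KO-labelled males, with overlap. Its log2 fold change was -0.10 ± 0.07 in females and -0.07 ± 0.05 on average (SE; edgeR, adjusted p = 0.835 for the average).

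The connexins differed in their spread. Gja1 was 157, 181 and 142 CPM in Het females, 146, 177, 205 and 158 in KO-labelled females, 231, 154 and 149 in Het males and 157, 172, 141 and 156 in KO-labelled males. Its averaged value was -0.04 ± 0.10 (SE; edgeR, adjusted p = 0.975), with a positive fitted difference in females (0.10 ± 0.14) and a negative one in males (-0.18 ± 0.14); the difference between the sexes was -0.28 ± 0.20 (SE; edgeR, adjusted p = 0.977). Gjb6 was 13.8, 18.5 and 13.3 CPM in Het females and 15.1, 13.7, 5.05 and 17.0 in KO-labelled females. In males Gjb6 was 11.03, 11.6 and 12.5 in Het and 6.65, 13.5, 8.62 and 12.4 in KO-labelled libraries. Its highest library held 3.66 times its lowest, KO female 3, and the averaged value was -0.23 ± 0.21 (SE; edgeR, adjusted p = 0.884).

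Aqp4 was 390, 392 and 385 CPM in Het females, a spread of 0.915% of the mean, and 366, 519, 437 and 345 in KO-labelled females. In males Aqp4 was 550, 332 and 303 in Het and 422, 388, 395 and 414 in KO-labelled libraries. KO-labelled females lay both above and below the Het females, and KO-labelled males lay within the range of the Het males, with an averaged value of 0.07 ± 0.11 (SE; edgeR, adjusted p = 0.952). Aldh1l1 was 182, 182 and 172 CPM in Het females, 142, 150, 177 and 163 in KO-labelled females, 217, 193 and 126 in Het males and 135, 151, 152 and 169 in KO-labelled males. Its averaged value was -0.21 ± 0.09 (SE; edgeR, adjusted p = 0.745). The edgeR fit without the filter on low counts, which called 263 of 30270 genes, gave Aldh1l1 an adjusted p of 0.0182.

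**Figure D2:**
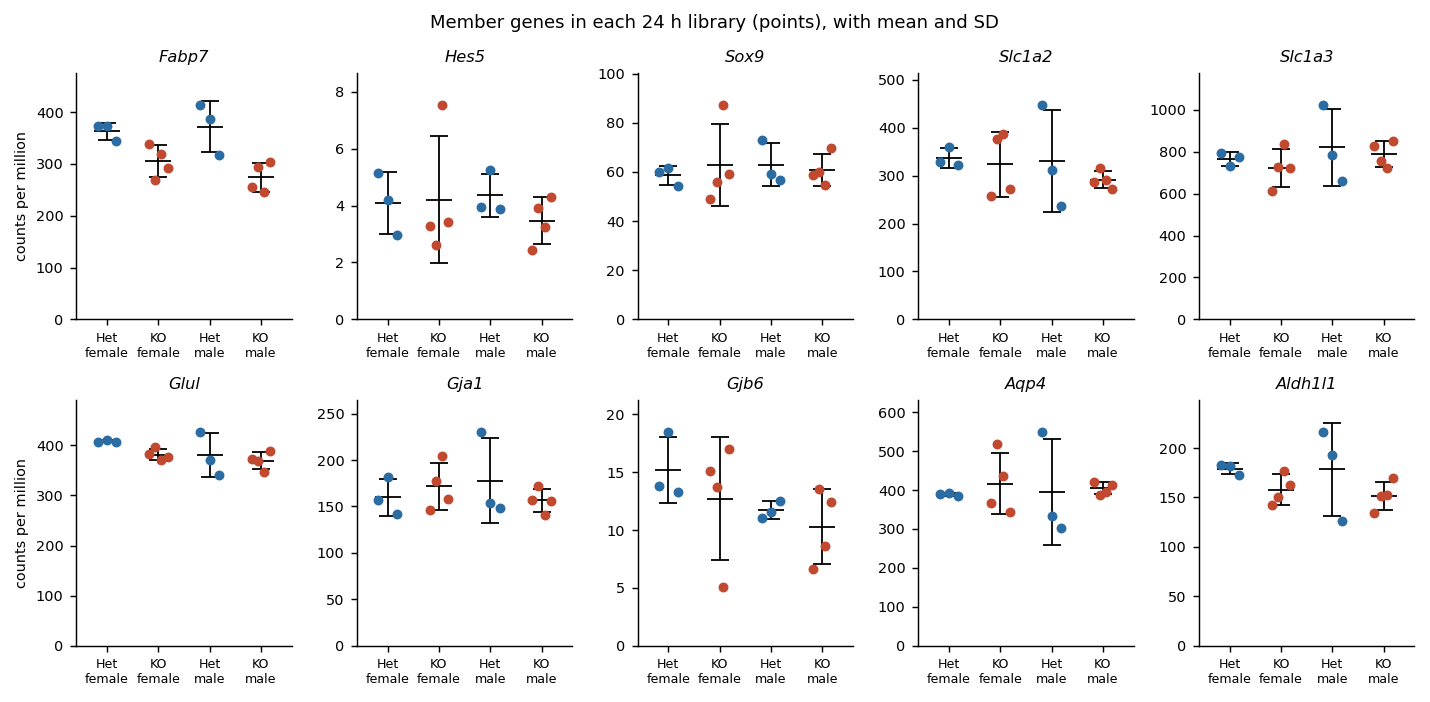
CPM (linear axes from 0) of the 10 genes in the 24 h libraries, Het in blue and KO-labelled in red, 3 or 4 per group; bars give the mean and SD. Fabp7 is lower in every KO-labelled library than in every Het library of the same sex, and single libraries stand out for Hes5, Sox9 and Gjb6 among KO-labelled females and for most genes among Het males.

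A few libraries carried much of the spread. Het male 1 was the highest of the 14 libraries for Fabp7, Slc1a2, Slc1a3, Gja1, Aldh1l1, Aqp4 and Glul, with a median deviation of 0.27 from its group mean on the log2 scale, and Het male 3 was the lowest for Slc1a2, Aldh1l1, Aqp4 and Glul, with a median deviation of -0.23. Without Het male 1, 4 of the 10 genes were lower in KO-labelled males in place of 9, and their median moved from -0.18 to 0.05. Without Het male 3 all 10 were lower in males, with a median of -0.24. In females 6 of the 10 were lower, with a median of -0.07, and 7 were without KO female 2, whose sex-linked reads go against its label. Without KO female 1, 5 were lower and 5 higher, with a median of 0.014, and without KO female 4, 5 were lower, with a median of -0.03. Without the 3 libraries with Ttr, 9 of the 10 were lower on average over the sexes, with a median of -0.04. The averaged log2 fold changes were then -0.38 ± 0.07 for Fabp7, -0.37 ± 0.20 for Hes5, -0.0092 ± 0.076 for Sox9, -0.12 ± 0.13 for Slc1a2, -0.05 ± 0.09 for Slc1a3 and -0.04 ± 0.06 for Glul (SE). They were -0.03 ± 0.10 for Gja1, -0.04 ± 0.16 for Gjb6, 0.10 ± 0.13 for Aqp4 and -0.21 ± 0.11 for Aldh1l1 (SE). The values of Hes5 and Gjb6 moved most, and none of the 10 passed the threshold (edgeR). Summed choroid plexus counts were 18.8 to 27.8 CPM in the Het libraries, 21.9 to 2823 in KO-labelled females and 22.7 to 502 in KO-labelled males. Every gene of that list was read in some library at 24 h.

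**Figure D3:**
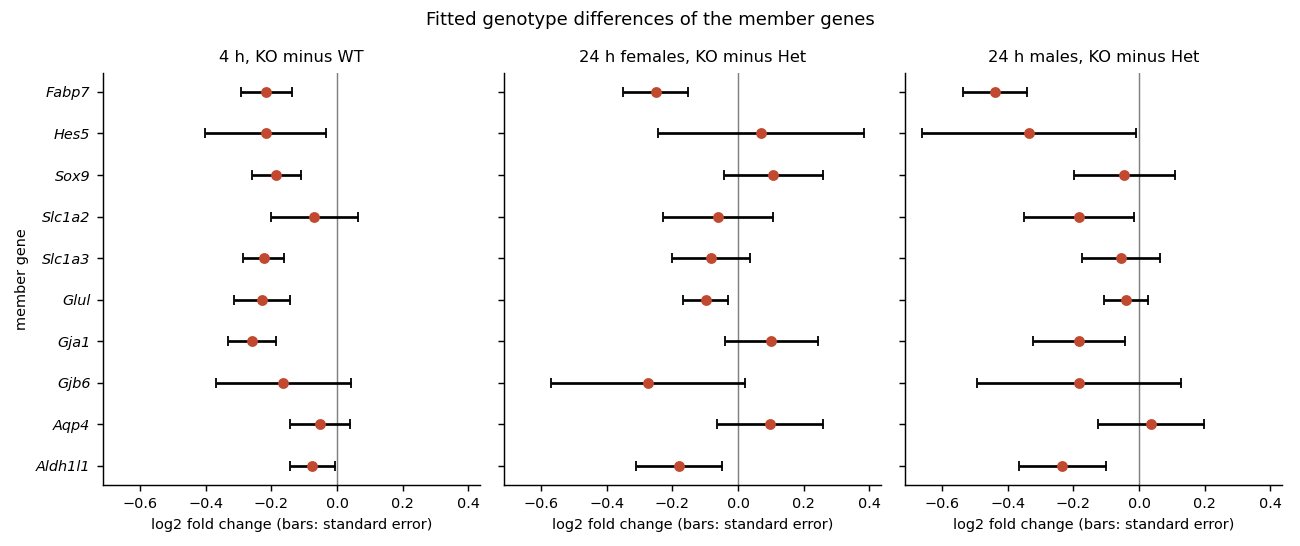
Fitted log2 fold changes of the 10 genes at 4 h (KO-labelled minus WT, limma) and within females and males at 24 h (KO-labelled minus Het, edgeR); bars are standard errors and the grey line marks 0. All 10 points lie left of 0 at 4 h, 6 in females and 9 in males at 24 h, and no point passed an adjusted p of 0.05.

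Between the sexes, 3 genes of the table differed at 24 h (0.0187%; edgeR, males minus females averaged over genotypes), and none was one of the 10. The largest sex difference among the 10 was that of Gjb6, at -0.33 ± 0.22, followed by Slc1a3 at 0.11 ± 0.08 (SE; edgeR, adjusted p = 0.998 for both). Without KO female 2 the count of genes was 9 and again included none of the 10.

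The other glial lists at 24 h held no called gene. Further radial glia and progenitor genes were negative in 9 of 15 with a median of -0.07, led by the Notch modifier Lfng (-0.35 ± 0.11) and the transcription factor Pax6 (-0.32 ± 0.13). Further astrocyte genes were negative in 22 of 24 with a median of -0.12, led by Cldn10 (-0.46 ± 0.16) and Acsbg1 (-0.22 ± 0.09), whereas within females 12 of 24 were negative. Reactive astrocyte genes were positive in 15 of 16 with a median of 0.25, led by the metalloreductase Steap4 (1.10 ± 0.36) and the secreted lipocalin Lcn2 (1.93 ± 0.63). This list shares Gfap with the astrocyte list and Vim with the radial glia list. Its summed counts overlapped, at 3113 to 3780 CPM in Het females, 3120 to 3882 in KO-labelled females, 3169 to 4722 in Het males and 3386 to 4623 in KO-labelled males. Errors are SE from edgeR.

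Around the members' functions, Notch genes were negative in 7 of 20 at 24 h with a median of 0.02, led by Maml1 (0.16 ± 0.07) and Hey1 (-0.15 ± 0.06). Endfoot and ion balance genes were negative in 7 of 13 with a median of -0.01, led by Aqp1 (0.96 ± 0.28), also a choroid plexus gene, and Slc12a2 (0.14 ± 0.05). Glutamate cycle genes were negative in 8 of 13 with a median of -0.01, among them Slc38a3 (-0.12 ± 0.08). Gliogenic transcription factors were negative in 7 of 12 with a median of -0.03, led by Olig2 (-0.18 ± 0.06) and Id1 (-0.21 ± 0.12). Connexins and pannexins were negative in 6 of 11 with a median of -0.02, led by the junction scaffold Tjp1 (0.12 ± 0.06) and Panx1 (-0.06 ± 0.04). One-carbon folate genes were negative in 5 of 10 with a median of 0.00, led by Aldh1l2 (0.11 ± 0.05) and Mthfd1 (-0.11 ± 0.06).

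Among other cell types at 24 h, cell cycle genes were negative in 14 of 15 with a median of -0.26, led by Bub1 (-0.41 ± 0.14) and Aurkb (-0.49 ± 0.18). Excitatory neuron genes were positive in 12 of 14 with a median of 0.12, among them Neurod2 (0.18 ± 0.08), and pan-neuronal genes in 10 of 12 with a median of 0.04, led by Rbfox3 (0.10 ± 0.05) and Dcx (0.12 ± 0.07). Inhibitory neuron genes were negative in 9 of 13 with a median of -0.05, led by Sp8 (-0.57 ± 0.15) and Dlx1 (-0.24 ± 0.10). Oligodendrocyte precursor genes were negative in 7 of 12 with a median of -0.08, led by Cspg4 (0.33 ± 0.08), and microglial genes in 10 of 12 with a median of -0.11, led by Cx3cr1 (-0.23 ± 0.10) and Fcrls (-0.25 ± 0.11). Endothelial and pericyte genes were negative in 9 of 14 with a median of -0.04, led by Cldn5 (-0.17 ± 0.07) and Pecam1 (-0.12 ± 0.07). Meningeal genes were negative in 3 of 12 with a median of 0.06, led by Dcn (0.42 ± 0.19) and Col3a1 (0.20 ± 0.16), and ependymal genes in 7 of 10 with a median of -0.04, led by Mcidas (-0.41 ± 0.30) and Rsph1 (-0.17 ± 0.20). Both lists changed direction between the sexes. Meningeal genes had a median of -0.09 in females (9 of 12 negative) and 0.20 in males (2 of 12 negative). Ependymal genes had a median of 0.11 in females (3 of 10 negative) and -0.10 in males (9 of 10 negative). Choroid plexus genes were positive in 9 of 10 with a median of 1.13, which follows the 3 libraries named above. No gene of these lists passed the threshold, and their part in the members' values was not tested.

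Compared per length of annotated exon, Fabp7 was the most abundant of the 10 at 4 h, at 506 CPM per kilobase (kb), and Glul and Slc1a3 came next at 140 and 90.0. Slc1a2 at 29.4, Aldh1l1 at 29.0 and Aqp4 at 23.9 overlapped over the 6 libraries, as did Sox9 at 15.5 with Gja1 at 12.2. Hes5 at 4.25 and Gjb6 at 1.41 were the weakest. At 24 h the order was Fabp7 at 258, Glul at 115, Slc1a3 at 90.4, Aqp4 at 64.5, Aldh1l1 at 36.5, Slc1a2 at 24.3, Gja1 at 16.2, Sox9 at 14.8, Gjb6 at 4.62 and Hes5 at 2.94. Over the 14 libraries the ranges of neighbours in this order overlapped except between Fabp7 and Glul, Aqp4 and Aldh1l1, and Sox9 and Gjb6.

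The tables of the 2 times were normalised separately and their control genotypes differ, so the levels at 4 and 24 h are set side by side without a test, as CPM over the 19722 genes in both tables. Gjb6 at 24 h was 3.27 times its 4 h level over all libraries and Aqp4 was 2.70 times, and for both every 24 h library lay above every 4 h library. Fabp7 was at 0.511 times its 4 h level, with every 24 h library below every 4 h library. Among the KO-labelled libraries alone, the ratios were 3.25 for Gjb6, 2.84 for Aqp4 and 0.498 for Fabp7. The other 7 genes overlapped between the times, from Hes5 at 0.692 to Gja1 at 1.32, and Slc1a3 was level at 1.00. The share of the 19722 genes without overlap between the times was not determined. Whether the separation of Gjb6, Aqp4 and Fabp7 is unusual among all genes therefore cannot be told. Per length, Aqp4 was 0.0476 ± 0.0065 of Fabp7 at 4 h (SD, n = 6) and 0.256 ± 0.0597 at 24 h (SD, n = 14), and Gja1 was 8.69 ± 1.07 times Gjb6 at 4 h and 4.01 ± 2.18 times at 24 h.

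**Figure D4:**
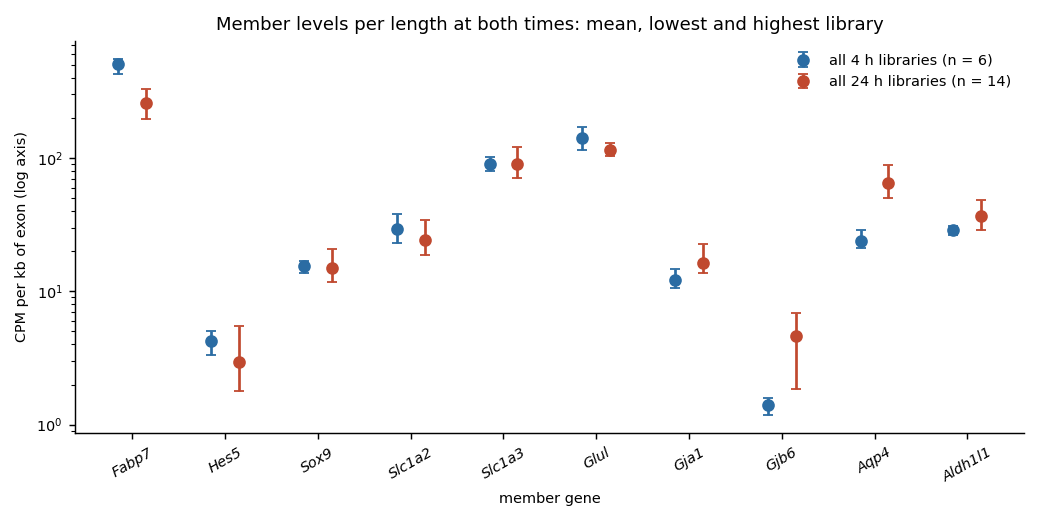
Mean level of each gene in CPM per kb of annotated exon (log axis) over the 6 libraries at 4 h (blue) and the 14 at 24 h (red), with bars from the lowest to the highest library. Gjb6 and Aqp4 are higher and Fabp7 is lower at 24 h without overlap, and the other 7 genes overlap. The share of all genes without overlap was not determined.

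How the 10 genes varied between libraries of a group was described at 24 h. Over the 14 libraries, with each group's mean removed from log2 CPM, 36 of the 45 pairs had a positive Pearson r, and the median r was 0.51. Slc1a2 and Gja1 were the only pair past an adjusted p of 0.05 over the 45 (r = 0.88, permutation p = 0.00066, adjusted 0.0297; Spearman rho = 0.87, permutation p = 0.00283, adjusted 0.0637). Their r was 0.80 without Het male 1 and Het male 3, the libraries farthest from the median. No pair passed without the libraries with Ttr (median r 0.64, highest 0.95) or without KO female 2 (0.61 and 0.90), although these values of r were not lower. Libraries were permuted only within groups. Without the libraries with Ttr so few arrangements remained that a single pair could not have passed at any r. That setting therefore cannot show whether the relation of Slc1a2 and Gja1 depends on those libraries. Slc1a2 with Aqp4 had an r of 0.88 as well (permutation p = 0.0346, adjusted 0.197) and 0.73 without the same 2 libraries. Gjb6 had a negative r with 7 of the other 9, from -0.55 with Sox9 to -0.15 with Aldh1l1, and its lowest library, KO female 3, was the highest for Sox9 and Hes5. Without KO female 3 and KO male 1 its r was -0.052 with Sox9 and 0.0042 with Hes5. Without KO female 3 and Het male 1 it was 0.20 with Gja1, so that these relations rest on the libraries left out. For Slc1a2 and Slc1a3 the libraries left out were Het male 1 and Het male 3, and r was -0.46 and -0.59. KO female 3 was still included there. No Gjb6 pair passed the adjusted threshold.

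**Figure D5:**
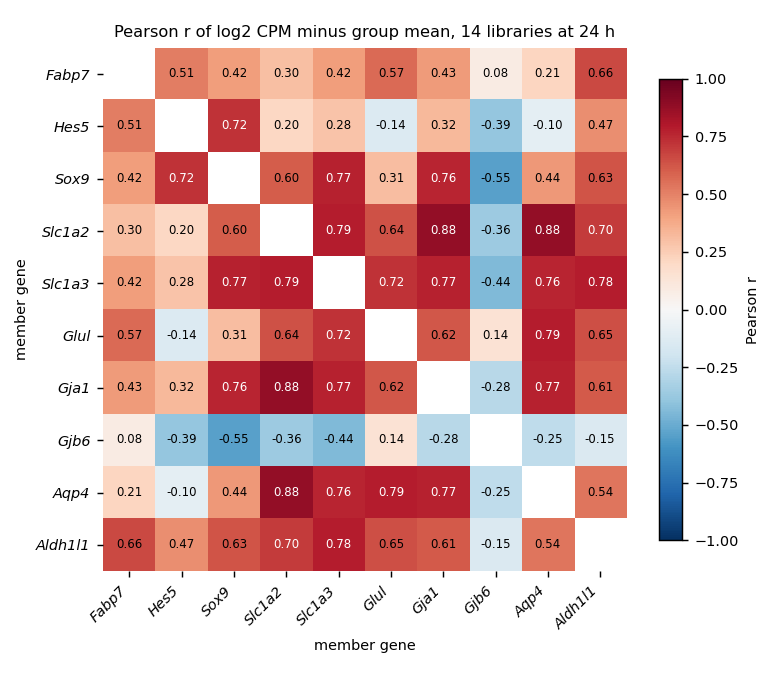
Pearson r between the 10 genes over the 14 libraries at 24 h, from log2 CPM minus the group mean (red positive, blue negative). The genes other than Gjb6 and Hes5 have positive values up to 0.88 with each other, and 7 of the 9 values of Gjb6 are negative.

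The genes outside the 10 whose log2 CPM followed the standardised mean of the 10 most closely over the same 14 libraries, among 6963 genes at or above a mean log2 CPM of 5, were Tril (r = 0.94), Atp1b2 (0.94), Peli2 (0.93), Asrgl1 (0.92), Gfap (0.92), Hadha (0.92), Spon1 (0.91), Hacd2 (0.91), Myo6 (0.90) and Dazap2 (0.90). They were picked as the highest of many, so their r is a description. Gfap, the intermediate filament of astrocytes, and Atp1b2, a sodium pump subunit of astrocytes, belong to the further astrocyte list. Over the 6 libraries at 4 h the r of the same 10 genes with the mean ran from -0.71 for Hacd2 to 0.73 for Myo6, and 5 of the 10 were above 0.

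The annotated positions of the 10 genes are spread over chromosomes 10 (Fabp7 and Gja1), 2 (Slc1a2), 15 (Slc1a3), 14 (Gjb6), 6 (Aldh1l1), 18 (Aqp4), 11 (Sox9), 1 (Glul) and 4 (Hes5) of GRCm38. Fabp7, at 57784881 to 57788450, lies downstream of Gja1, at 56377330 to 56402513, on the same strand. Glul shares 116 exon bases with Teddm2 on the opposite strand, which was assigned 451 reads at 24 h against 65863 for Glul, and Hes5 shares 433 with Gm20421, which was assigned 5 reads. Whether the counting used strand is not given in the sources used here, so reads of these overlapping genes cannot be told apart.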

How the data were processed

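The 10 genes and all other gene lists were chosen with earlier results of these data known. The authors used TopHat2, HTSeq and DESeq2 1.38.3 and the build GRCm38, per the submitters' processing notes; libraries were made with SMART-Seq V4 chemistry per the labels' protocols. The deposited 4 h values are a signal, read counts divided by a size factor: whole reads were recovered for 100% of values in every library within a tolerance of 0.05, and edgeR on those reads called 7 genes. The deposited 24 h values are raw counts.

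At 4 h, log2(value + 1) of genes with a mean of at least 10 was tested with limma 3.58.1 with a trend. At 24 h, edgeR 4.0.16 used TMM scaling, filterByExpr and its quasi-likelihood test with 1 mean per genotype and sex. The 24 h CPM of the 10 genes and of the summed lists were scaled to library totals adjusted by TMM, and those of Ttr alone to unadjusted totals. Benjamini-Hochberg adjustment covered all genes tested, with a threshold of 0.05. DESeq2 1.42.0, other scalings and filters, a replicate block and leaving out libraries were the alternatives. Deviations of same-numbered 4 h libraries correlated at 0.264, 0.140 and 0.176, so the block is given beside the 4 h results. Scripts were tested on simulated data. Correlations used 100000 permutations within groups (scipy). Levels per length used the exon union of GENCODE. Named from each other list were its called genes or, with none, the 2 with the smallest p. A few genes that this rule names are not reported here.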

Additional observations from a re-analysis of the deposited data

Results flagged for a closer look

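One value stood far from its group: Hes5 in KO female 3 was 7.53 CPM, and its gap to the nearest of the 4 KO-labelled females was 0.838 of their whole range, above Dixon's critical value of 0.829. This was 1 of 20 groups checked, and chance alone would be expected to mark about 1 in 20. Only groups of 4 libraries were checked, that is the KO-labelled ones at 24 h, so no WT, Het or 4 h group was examined. The same library held the most Ttr reads, at 2669 CPM, and the highest Sox9 and lowest Gjb6 of the 14 libraries at 24 h. The part of choroid plexus RNA in these values was not tested.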

How the results depend on the processing

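The counts of genes past the threshold depended on the tool and the filter, and the cause was not tested. At 4 h the count was 7, against 161 by DESeq2, 38 with the replicate block, 1 without both libraries with Xist reads and 1 to 211 when single libraries were left out (211 without KO 2, 1 without WT 1, 2 without WT 2, 4 without KO 3, 11 without KO 1). The members called were 0, against 1 by DESeq2 (Slc1a3) and 0 to 1 when single libraries were left out (Fabp7 without KO 2). At 24 h over both sexes the count was 0, against 5 by DESeq2, 263 with no filter on low counts and 6 with the replicate block, and 0 to 2 when single libraries were left out; the members called were 0, against 1 by DESeq2 (Fabp7) and 2 with no filter (Fabp7 and Aldh1l1). Within females the count of 0 became 1 by DESeq2, 180 with no filter and 6 with the block, and within males 1 by DESeq2 and 220 with no filter, with 1 member (Fabp7). For the genotype contrast between the sexes it became 1, 165 and 4 by DESeq2, with no filter and with the block. For males minus females the 3 genes became 5 by DESeq2, 215 with no filter, 9 without the library whose sex-linked reads go against its label, 0 without the libraries with choroid plexus reads and 2 to 9 when single libraries were left out. The last exclusion, and that of the mismatched library from the pairs, were added after seeing the data. At 24 h the deviations of libraries with the same number in their titles correlated between -0.16 and 0.092. The submitters' sample descriptions number some libraries differently, and by those numbers the correlations lay between 0.012 and 0.092. Neither range settles whether same-numbered libraries share more than a number. The block, which used the title numbers, called none of the 10 genes at either time. The single pair past the threshold became 14 pairs with no group means removed, 0 without the libraries with choroid plexus reads, 0 without the mismatched library and 0 to 3 when single libraries were left out. Without the libraries with choroid plexus reads too few arrangements within groups remained for a single pair to pass.

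Signs changed for genes near 0. At 4 h, Slc1a2 was 0.18 and Aqp4 0.093 without both libraries with Xist reads, and single libraries moved them from -0.25 to 0.091 (without WT 1; 0.017 without KO 1) and from -0.15 to 0.058 (without WT 1). At 24 h, Sox9 was -0.012 with the replicate block and -0.0092 without the libraries with choroid plexus reads. Single libraries moved Sox9 from -0.069 (without KO female 3) to 0.090, Slc1a2 from -0.22 to 0.015, Slc1a3 from -0.14 to 0.026, Gja1 from -0.095 to 0.075 and Aqp4 from -0.012 to 0.22. The values at the upper ends were those without Het male 1, and Aqp4 was negative without Het male 3. The genotype difference of Fabp7 was negative at 4 h and in both sexes at 24 h in every setting run. Hes5 and Gjb6 rest on few reads, which can limit precision, but the part of read depth in their spread was not tested. At 24 h the SD of Gjb6 was 41.5% of its mean in KO-labelled females, with 90 to 214 reads per library. In Het males it was 6.54%, with 112 to 203 reads per library.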
